A study of Mus musculus with 6 samples.

Results

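The perineuronal net is a lattice of extracellular matrix that wraps the cell body and proximal dendrites of certain neurons, in the hippocampus mainly parvalbumin interneurons and pyramidal cells of CA2. Its backbone is hyaluronan, a sugar polymer made at the cell surface by hyaluronan synthases. The lecticans (aggrecan, brevican, neurocan and versican), which carry chondroitin sulfate chains, bind hyaluronan, link proteins of the Hapln family lock that bond, and tenascin-R joins lecticans to each other. Nets form late in postnatal development and are known for limiting plasticity once they have formed.

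Expression of 10 genes of this matrix was examined, out of 25239 genes listed in the counts. They were the link protein genes *Hapln1*, *Hapln2* and *Hapln4*, the lectican genes *Acan*, *Bcan*, *Ncan* and *Vcan*, the tenascin-R gene *Tnr*, the receptor phosphatase gene *Ptprz1* and the hyaluronan synthase gene *Has2*. The genes were chosen by name as parts of the net, with the genotype difference of these libraries in view, and *Hapln1* was singled out for its lower values in Ube3am-/p+ mice. The differences between genotypes given for these 10 genes are therefore a description, and no p is printed for them. Where one of them is said to be called, that rests on the adjusted p of the fit. Because of this choice, such a call is a description too and no support for a difference.

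Hippocampal RNA came from 3 wild-type mice (Ube3am+/p+, called WT) and 3 Ube3am-/p+ mice, which lack a functional maternal copy of *Ube3a* and keep the paternal one, a model of Angelman syndrome (AS). All were C57BL/6 males, 6 to 8 weeks old, with 1 library per mouse. Since most neurons silence the paternal copy while other cells use both, the model removes Ube3a mainly from neurons. *Ube3a* itself had 104, 141 and 151 CPM (a library's counts scaled to a sum of 1e+06 over genes) in WT mice 1, 2 and 3 and 96.8, 82.9 and 80.6 CPM in Ube3am-/p+ mice 1, 2 and 3. The log2 fold change was -0.58 with a standard error of 0.12 (edgeR's quasi-likelihood test with Benjamini-Hochberg adjustment, adjusted p = 0.0363), and -0.20 after the correction for GC content described next (adjusted p = 0.241).

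The libraries held 7293272 to 8675252 counts on genes in WT mice and 8871052 to 11314409 in Ube3am-/p+ mice. Calling a gene required a change of more than 1.2-fold with an adjusted p under 0.05, and 290 of the 14445 genes tested were called (2.01%). Expression also followed the GC content of the transcript, to a different degree in each library. Spearman's rho of GC content with each library's departure from the 6-library average, taken over genes (not independent replicates), was 0.0455, -0.506 and -0.571 for WT mice 1, 2 and 3, while Ube3am-/p+ mice 1, 2 and 3 had 0.0589, 0.526 and 0.528. This relation moves with genotype except in the mice numbered 1, which were alike. Each difference of a tested net gene is therefore given beside its value after correction of every library for GC content and transcript length, and beside the log2 ratio of the mice numbered 1 alone. That ratio compares 1 library with 1 and has no error. *Ube3a* itself had its nearest values of the genotypes in this pair (104 CPM in WT and 96.8 CPM in Ube3am-/p+ mouse 1). Differences of other named genes are given beside the corrected value.

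In the mouse genome the link protein genes lie beside lectican genes. *Hapln1* (GRCm38, chr13:89539796-89611652, plus strand) and *Vcan* (chr13:89655312-89742509, minus strand) are neighbours on chromosome 13, 43659 bp apart. *Hapln2* and *Bcan* lie 21519 bp apart on chromosome 3, and *Hapln4* and *Ncan* 2222 bp apart on chromosome 8. No other annotated protein-coding gene stands between the members of any of these pairs. *Acan* has *Hapln3* as its neighbour on chromosome 7, the chromosome of *Ube3a*, which lies 19.7 Mb away with 62 protein-coding genes between them. *Tnr*, *Ptprz1* and *Has2* lie on chromosomes 1, 6 and 15. Exons of *Tnr* overlap those of the antisense gene *Gm38039* over 443 bp and exons of *Has2* those of *Has2os* over 182 bp. The exons of the other 8 genes overlap no annotated exon of another gene. Exons of *Ube3a* overlap exons on the opposite strand of *Snhg14* (1803 bp), *Gm44560* (2025 bp) and *9330162G02Rik* (1796 bp), and the effect on its counts was not tested. Whether the counting used strands is not given in the sources used here.

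The sequences just before the transcription start are shown for *Vcan*, *Ptprz1* and *Tnr*, whose estimated differences were the largest after that of *Hapln1*. They are the 250 bases upstream of the RefSeq start (GRCm38.p6), from 5′ to 3′ on the strand of the gene, and contain no annotated exon. Capitals mark the letters GGGCGG, a box bound by Sp1, on either strand. The window of *Hapln1* falls within an annotated exon and is not printed.
Vcan, chr13:89742513-89742762, minus strand: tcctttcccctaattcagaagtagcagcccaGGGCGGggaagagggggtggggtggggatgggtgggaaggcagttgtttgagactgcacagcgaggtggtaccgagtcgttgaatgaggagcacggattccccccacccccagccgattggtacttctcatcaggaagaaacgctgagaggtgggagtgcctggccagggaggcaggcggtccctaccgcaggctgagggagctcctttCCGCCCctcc
Ptprz1, chr6:22875252-22875501, plus strand: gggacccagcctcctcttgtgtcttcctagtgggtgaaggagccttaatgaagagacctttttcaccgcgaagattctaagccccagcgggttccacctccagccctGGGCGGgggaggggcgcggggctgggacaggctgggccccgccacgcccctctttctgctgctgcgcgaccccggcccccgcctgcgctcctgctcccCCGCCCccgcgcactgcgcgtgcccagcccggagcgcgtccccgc
Tnr, chr1:159523519-159523768, plus strand: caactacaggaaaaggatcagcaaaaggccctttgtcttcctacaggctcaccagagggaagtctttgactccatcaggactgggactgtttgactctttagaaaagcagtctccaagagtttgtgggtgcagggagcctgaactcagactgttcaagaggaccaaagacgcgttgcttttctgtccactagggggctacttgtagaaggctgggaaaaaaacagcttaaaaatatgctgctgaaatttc

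The windows of *Vcan* and *Ptprz1* each hold GGGCGG once on each strand, and that of *Tnr* holds none. Of all 32851 promoters in the table, 32.7% hold GGGCGG on either strand in the same 250 bases. CG dinucleotides numbered 10 in the window of *Vcan*, 22 in that of *Ptprz1* and 2 in that of *Tnr*, against a median of 6 over all promoters. Because the study concerns retinoic acid, the hexamer bound by its receptors, AGGTCA, was also searched on both strands. It was present in the windows of 14.0% of all promoters and in none of the 8 genes of the net with a RefSeq promoter, which says only that these letters are not in these windows.

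Of the 10 genes, 9 passed the filter on low counts and were tested, and *Has2* did not. Among the 9, *Hapln1* and *Vcan* were called lower in Ube3am-/p+ mice and none was called higher, beside 0.99% of all tested genes called lower and 1.02% called higher. The estimates were below 0 for 4 of the 9 genes and above 0 for 5, with a median log2 fold change of 0.0094, beside 0.0025 over all tested genes. No overlap between genotypes was seen for *Hapln1*, *Vcan* and *Hapln4*, all lower in Ube3am-/p+ mice, beside 14.2% of all tested genes without overlap in that direction and 10.8% in the other, where none of the 9 stood. DESeq2, which called 5.34% of all genes, also called *Hapln1* and *Vcan* of the 9. Both calls depended on the mice kept. Without WT mouse 2 or 3, or without Ube3am-/p+ mouse 2 or 3, none of the 9 was called, where 0 to 2 of all genes were. Without WT mouse 1 or Ube3am-/p+ mouse 1 there were 3, with *Ptprz1* added. Of all genes, 2582 of 14646 tested were called without WT mouse 1 and 1816 of 14536 without Ube3am-/p+ mouse 1.

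**Figure D1:**
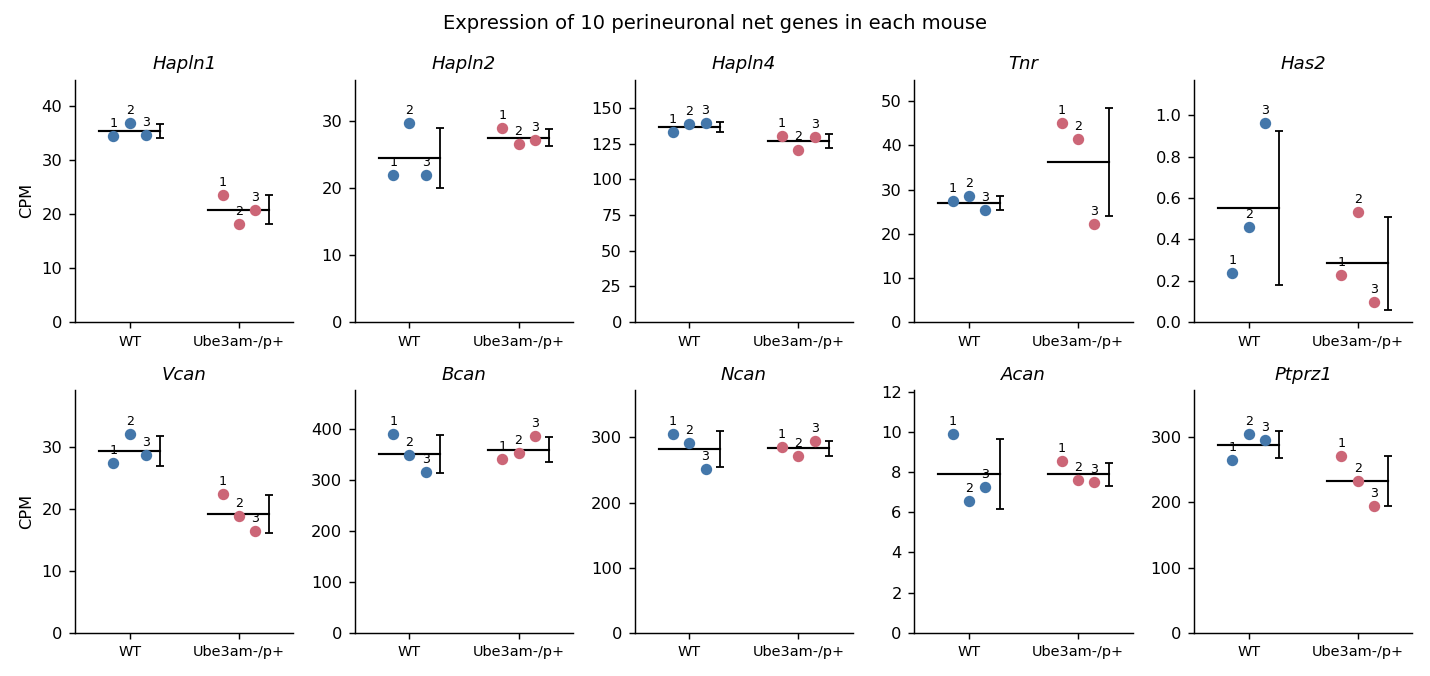
Expression of the 10 net genes in CPM (vertical axis, from 0) in WT and Ube3am-/p+ mice; each point is 1 mouse with its number, the line is the mean and the bar the SD (n = 3). The points of *Hapln1* and *Vcan* lie lower in all Ube3am-/p+ mice, those of *Tnr* are higher in mice 1 and 2 and not in mouse 3, and most others overlap.

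Of the link proteins, which fasten lecticans to hyaluronan, *Hapln1* encodes the form shared by cartilage and brain. It had 34.5, 36.8 and 34.7 CPM in WT mice 1, 2 and 3 and 23.4, 18.2 and 20.8 CPM in Ube3am-/p+ mice 1, 2 and 3, on 206 to 319 counts per library. The highest Ube3am-/p+ mouse stayed below the lowest WT mouse, and the gap between them was larger than the range within either genotype. The mean was 35.3 ± 1.26 CPM in WT mice and, at 0.589 of that level, 20.8 ± 2.62 CPM in Ube3am-/p+ mice (SD, n = 3 each), with a log2 fold change of -0.75 (standard error 0.12). After the correction for GC content and length the log2 fold change was -0.47 (standard error 0.11) and *Hapln1* was still called, beside 0.648% of the genes tested under the correction. Between the mice numbered 1 alone, the log2 ratio was -0.56. At 39.8% its longest transcript had the lowest GC content of the 9 genes tested, and the median log2 fold change of the 593 tested genes of 37.5% to 40% GC was -0.31.

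*Hapln4* encodes the link protein that pairs with brevican in the nets of the brain. It had 133, 139 and 139 CPM in WT mice and 130, 121 and 130 CPM in Ube3am-/p+ mice 1, 2 and 3. All Ube3am-/p+ mice were below all WT mice, but the nearest mice of the 2 genotypes, both numbered 1, were 132.9 and 130.1 CPM. The log2 fold change was -0.09 (standard error 0.08, 95% interval -0.27 to 0.08). After the correction it was -0.27 (standard error 0.08, 95% interval -0.43 to -0.11). *Hapln4* was not called in either fit, and these intervals are not adjusted for the number of genes tested. Between the mice numbered 1 the log2 ratio was -0.031.

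*Hapln2* encodes the link protein of the nodes of Ranvier, made by oligodendrocytes. Its values were 21.9, 29.6 and 21.9 CPM in WT mice and 29.0, 26.5 and 27.1 CPM in Ube3am-/p+ mice. The genotypes overlapped, since WT mouse 2 had the highest value of all. The log2 fold change of 0.18 (standard error 0.13) became -0.029 after the correction, so its direction depended on it, and the log2 ratio of the mice numbered 1 was 0.40.

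The proportions of the link protein genes within a mouse do not depend on library size, but they do depend on the relation to GC content, and were taken from uncorrected values. Taken as CPM per kilobase of the longest transcript, *Hapln1* made up 11.7%, 11.3% and 11.3% of the summed level of the 3 link protein genes in WT mice 1, 2 and 3, and in Ube3am-/p+ mice 1, 2 and 3 it made up 7.87%, 6.68% and 7.17%. *Hapln4* held 66.6% to 71.2% in WT mice and 68.4% to 70.0% in Ube3am-/p+ mice. The summed level was 51.8 to 57.1 CPM per kilobase in WT mice and 47.7 to 52.2 in Ube3am-/p+ mice, with overlap. The share held by *Hapln1* was thus lower in all 3 Ube3am-/p+ mice, while the largest share, that of *Hapln4*, overlapped. Subtracting the log2 fold change of *Hapln4* from that of *Hapln1* gave -0.66, and -0.20 after the correction, so that most of this shift in proportion went with the correction.

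Among the lecticans, *Vcan* encodes versican, the form made largely by oligodendrocyte precursors in the brain and the one with a wide role outside it. It had 27.3, 32.0 and 28.7 CPM in WT mice 1, 2 and 3 and 22.4, 18.8 and 16.3 CPM in Ube3am-/p+ mice 1, 2 and 3, on 172 to 278 counts. The genotypes did not overlap. The mean was 29.3 ± 2.43 CPM in WT mice and, at 0.654 of that level, 19.2 ± 3.06 CPM in Ube3am-/p+ mice (SD, n = 3 each), with a log2 fold change of -0.60 (standard error 0.13). After the correction it was -0.41 (standard error 0.11), no longer called, and between the mice numbered 1 it was -0.28. The transcript has a GC content of 43.7%, and the median of the 1589 tested genes of 42.5% to 45% GC was -0.17.

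*Bcan* encodes brevican and *Ncan* neurocan, the main lecticans of the adult and of the juvenile brain matrix, both made by glia and neurons. *Bcan* had 389, 348 and 315 CPM in WT mice and 340, 352 and 386 CPM in Ube3am-/p+ mice. *Ncan* had 305, 291 and 252 CPM in WT mice and 285, 272 and 295 CPM in Ube3am-/p+ mice. The genotypes overlapped for both genes, with means that differed by less than the SD of either genotype. The log2 fold change was 0.05 (standard error 0.09, 95% interval -0.15 to 0.25) for *Bcan*, and -0.20 (standard error 0.07, 95% interval -0.34 to -0.06) after the correction. It was 0.02 (standard error 0.09, 95% interval -0.17 to 0.21) for *Ncan*, and -0.06 (standard error 0.07, 95% interval -0.22 to 0.09) after the correction. Neither was called, and both estimates turned their sign with the correction. The log2 ratio of the mice numbered 1 was -0.20 for *Bcan* and -0.099 for *Ncan*.

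*Acan* encodes aggrecan, the lectican most closely tied to nets. It was counted 53 to 86 times per library, which gave 9.89, 6.57 and 7.27 CPM in WT mice and 8.57, 7.60 and 7.51 CPM in Ube3am-/p+ mice. All Ube3am-/p+ mice lay inside the WT range. The log2 fold change was 0.0094 with a wide 95% interval of -0.41 to 0.43. After the correction it was -0.071, with an interval of -0.47 to 0.32, and between the mice numbered 1 it was -0.21. Changes within these intervals were not detectable at this depth.

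Per kilobase, *Bcan* made up 71.7% to 73.0% of the summed lectican level in WT mice and 71.8% to 73.9% in Ube3am-/p+ mice, and *Ncan* 24.95% to 26.1% and 24.7% to 26.2%. The share of *Vcan* was 1.29%, 1.67% and 1.67% for WT mice 1, 2 and 3, while Ube3am-/p+ mice 1, 2 and 3 had 1.197%, 0.994% and 0.792%. All Ube3am-/p+ mice were below all WT mice, by the least between the mice numbered 1. These shares are uncorrected too. Between *Vcan* and *Bcan* the log2 fold changes differed by -0.65, and -0.21 after the correction. *Acan* held 0.577% to 0.792% in WT mice and 0.615% to 0.772% in Ube3am-/p+ mice.

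*Tnr* encodes tenascin-R, the glycoprotein that cross-links lecticans. It had 27.3, 28.5 and 25.4 CPM in WT mice and 45.0, 41.5 and 22.2 CPM in Ube3am-/p+ mice 1, 2 and 3. Ube3am-/p+ mice 1 and 2 were above every WT mouse, while Ube3am-/p+ mouse 3 was below every WT mouse. The SD was 1.57 CPM in WT mice and 12.3 CPM in Ube3am-/p+ mice, and *Tnr* was not called (log2 fold change 0.43, standard error 0.23). The correction gave 0.50 (standard error 0.15), also not called, and the mice numbered 1 differed by 0.72. Leaving out Ube3am-/p+ mouse 3 gave 0.69, and leaving out Ube3am-/p+ mouse 1 gave 0.27.

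*Ptprz1* encodes a receptor protein phosphatase whose outer part, also released as phosphacan, is a chondroitin sulfate proteoglycan of the net. It had 266, 305 and 295 CPM in WT mice and 271, 233 and 194 CPM in Ube3am-/p+ mice 1, 2 and 3. Ube3am-/p+ mice 2 and 3 were below every WT mouse, and Ube3am-/p+ mouse 1 was not. The log2 fold change was -0.30 (standard error 0.11) and after the correction -0.13 (standard error 0.07), and between the mice numbered 1 it was 0.03. *Ptprz1* was called only without WT mouse 1 (-0.35) or without Ube3am-/p+ mouse 1 (-0.41), among the fits run. These fits called 2582 of 14646 and 1816 of 14536 genes tested.

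*Has2* encodes the hyaluronan synthase that makes the longest chains. WT mice 1, 2 and 3 had 2, 4 and 7 counts of it, and Ube3am-/p+ mice 1, 2 and 3 had 2, 6 and 1. The 13 counts in WT mice correspond to 0.532 CPM (95% exact Poisson interval 0.283 to 0.909) and the 9 counts in Ube3am-/p+ mice to 0.293 CPM (0.134 to 0.556). The intervals cover counting error only and overlap, and a difference between the genotypes was not detectable at this depth.

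**Figure D2:**
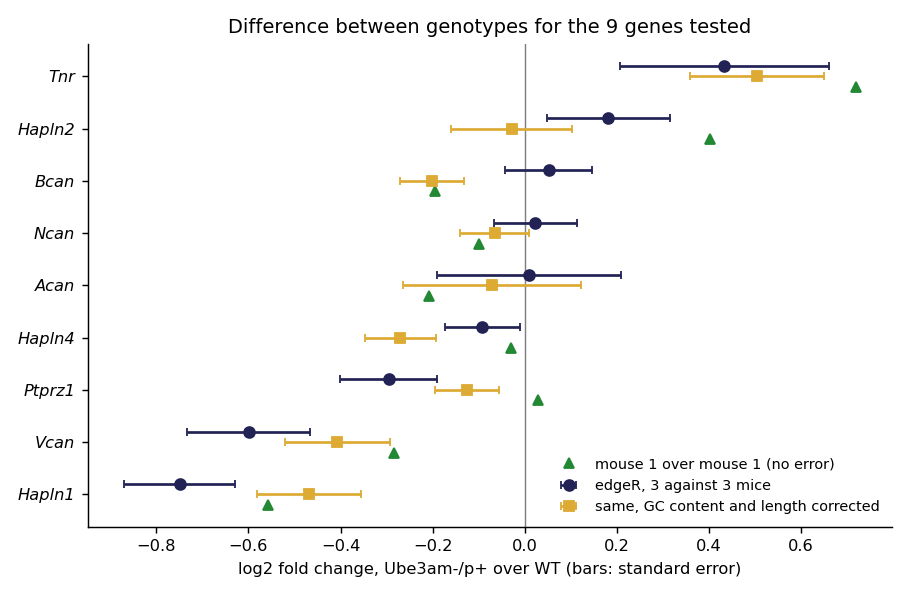
Log2 fold change of Ube3am-/p+ over WT mice (horizontal axis) for the 9 net genes tested, by edgeR (circles), by edgeR after correction for GC content and transcript length (squares), both with standard errors, and as the ratio of the mice numbered 1 (triangles, no error). *Hapln1* (-0.75, -0.47 and -0.56) and *Vcan* (-0.60, -0.41 and -0.28) are below 0 by all 3 measures, and *Tnr* is above 0 by all 3.

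The 9 differences were set beside those of all tested genes of like GC content. *Hapln1*, *Vcan* and *Ptprz1*, with 39.8% to 44.5% GC, had the lowest estimates, and the other 6, with 47.7% to 60.7%, had estimates between -0.09 and 0.43. Beside the median of the tested genes of similar GC content, 7 of the 9 were lower, and *Hapln2* (0.18 beside 0.17) and *Tnr* (0.43 beside -0.036) were higher. Of the 9, 6 lay below the quartile range of their step of GC content (*Hapln1*, *Vcan*, *Ptprz1*, *Hapln4*, *Bcan* and *Ncan*), 1 above it (*Tnr*) and 2 inside it (*Hapln2* and *Acan*). By definition the lowest quartile of all genes in each step lies below this range and the highest quartile above it. The genes were chosen with the genotype difference in view, so these counts are a description. After the correction 1 of the 9 estimates was above 0, that of *Tnr*, and their median was -0.13, beside -0.0101 over all genes. How far the relation to GC content is a property of the libraries or of the genotype cannot be told apart with these 6 mice.

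**Figure D3:**
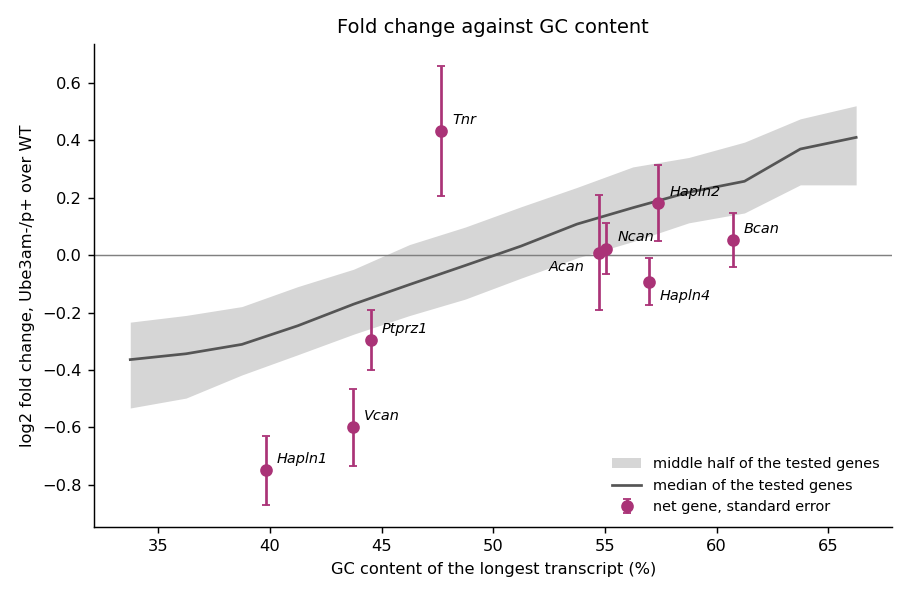
Log2 fold change of Ube3am-/p+ over WT mice (vertical axis) against the GC content of the longest transcript in percent (horizontal axis). Points are the 9 net genes with standard errors, the line is the median of all tested genes in steps of GC content and the band spans their quartiles. The line climbs from low to high GC content, *Hapln1* (-0.75), *Vcan* (-0.60) and, by little, *Ptprz1* (-0.30) lie below the band at low GC content, *Hapln4* (-0.09) and *Bcan* (0.05) below it and *Ncan* (0.02) near its lower edge at high GC content, and *Tnr* (0.43) above it.

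Levels of different genes were compared per kilobase of the longest annotated transcript. In WT mice *Bcan* was highest with 112 ± 11.9 CPM per kilobase (SD, n = 3). *Ncan* (39.3 ± 3.84), *Hapln4* (37.5 ± 0.968) and *Ptprz1* (35.8 ± 2.55) followed, and the ranges of neighbours among these overlapped. The overlap of *Ptprz1* with *Hapln4* depended on the length used, since per kilobase of all annotated exons *Ptprz1* had 18.6 to 21.4 and *Hapln4* 33.9 to 35.5. *Hapln2* had 10.5 ± 1.90 and *Hapln1* 6.18 ± 0.220 CPM per kilobase, without overlap with their neighbours in the order. *Vcan* (2.36 ± 0.196) and *Tnr* (2.22 ± 0.129) overlapped, *Acan* had 1.08 ± 0.238, and *Has2* was last with 0.130 ± 0.0875. In Ube3am-/p+ mice the order was the same but for *Tnr* (2.97 ± 1.00) and *Vcan* (1.55 ± 0.246), which changed places. *Tnr* reached 0.342 to 0.371 of the level of *Hapln1* in WT mice and 0.500 to 1.07 of it in Ube3am-/p+ mice.

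**Figure D4:**
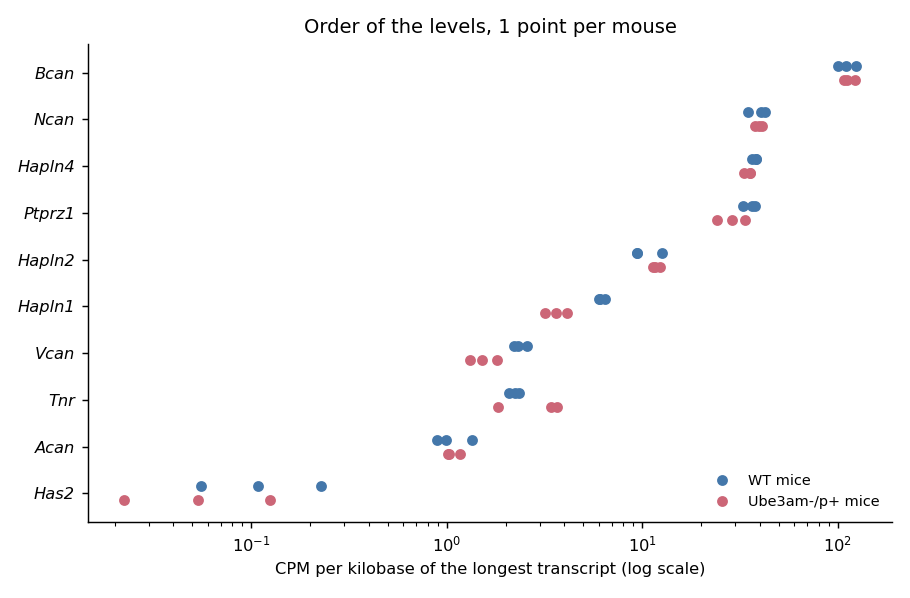
Level of each net gene in CPM per kilobase of the longest transcript (horizontal axis, log scale), 1 point per mouse, in the order of the WT means. *Bcan* leads in every mouse and *Has2* is lowest; *Hapln1* and *Vcan* are separated by genotype, and *Tnr* spreads over Ube3am-/p+ mice.

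The genes nearest on either side of *Hapln1* and *Vcan* among those tested were looked at after the values of the pair were seen. *Edil3*, which encodes an integrin ligand and lies 216572 bp before *Hapln1*, had 138 ± 20.7 CPM in WT and 105 ± 10.2 CPM in Ube3am-/p+ mice (SD, n = 3 each). Its estimate of -0.37 on the log2 scale (adjusted p = 0.0654, edgeR) was -0.044 after the correction. *Xrcc4*, a DNA repair gene 31517 bp after *Vcan*, had 6.65 ± 0.872 and 7.69 ± 2.03 CPM (SD, n = 3) and an estimate of 0.22 (adjusted p = 0.577, edgeR), which was 0.41 after the correction. Neither was called. Profiles over the 6 libraries were also compared, as TMM-scaled log2 CPM centred on each gene's mean, so without regard to its level. Closest to *Hapln1* were *Cdh6* (a cadherin), *Abca17* and *Zbtb26*, with root mean square differences of 0.0696, 0.0865 and 0.0963 on the log2 scale. These profiles were not corrected for GC content. *Abca17* had as few as 9 counts in a library.

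Of 69 other genes of this matrix, listed by role, 64 were tested, and 1 was called, with higher expression in Ube3am-/p+ mice, beside 2.01% of all genes. Their log2 fold changes were positive for 39 and negative for 25, with a median of 0.07, which was 0.005 after the correction for GC content and length. At an unadjusted p below 0.05 and the same fold change there were 11, beside 19.6% of all genes. The genotypes did not overlap for 8 of the 64 in the higher direction and for 9 in the lower, beside 10.8% and 14.2% of all genes. Among the genes named below, these were *B3gat3*, *Chst14* and *Mmp2* (higher) and *Has3* and *Adamts20* (lower).

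The called gene was *B3gat3*, whose enzyme completes the linker on which chondroitin and heparan sulfate chains are built. It had 96.4 ± 7.04 CPM in WT and 137.8 ± 24.99 CPM in Ube3am-/p+ mice (SD, n = 3 each), without overlap. On the log2 scale it rose by 0.53 ± 0.12 (standard error; edgeR, adjusted p = 0.0406). After the correction it was 0.19 (adjusted p = 0.260, edgeR), on a transcript of 61.6% GC, and it was not called without WT mouse 2 or 3 or without Ube3am-/p+ mouse 2 or 3. It was 1 of 21 tested genes that build and sulfate the chains, of which 15 had positive estimates. The highest and lowest of that list were *Chst14*, a sulfotransferase of dermatan sulfate (0.82, adjusted p = 0.169, edgeR; 0.63 after the correction), and *Csgalnact2*, which starts chondroitin chains (-0.36, adjusted p = 0.163, edgeR; -0.013 after the correction).

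None of the 8 tested genes of hyaluronan, links and tenascins was called. Their lowest estimate was that of *Has3*, another hyaluronan synthase, with 7.29 ± 0.501 CPM in WT and 4.87 ± 1.41 CPM in Ube3am-/p+ mice, SD over n = 3 each (-0.55, adjusted p = 0.159, edgeR, and -0.50 after the correction), and the highest that of *Tnc*, which encodes tenascin-C (0.40, adjusted p = 0.215, edgeR, and 0.37 after the correction). *Hapln3*, the link protein gene beside *Acan*, was too low to be tested. None of the 8 other chondroitin sulfate core proteins was called, with estimates from -0.26 for *Spock3* to 0.44 for *Dcn*, which encodes decorin (adjusted p = 0.206 and 0.539, edgeR). After the correction these were 0.057 and 0.79.

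None of the 13 proteases and inhibitors tested was called, among them the lectican-cleaving Adamts enzymes. *Adamts20* had 33.1 ± 2.12 and 24.8 ± 2.85 CPM (SD, n = 3) without overlap (-0.40, adjusted p = 0.0700, edgeR, and -0.32 after the correction). *Mmp2*, a gelatinase, had 3.05 ± 0.457 and 4.37 ± 0.577 CPM (SD, n = 3), also without overlap (0.53, adjusted p = 0.214, edgeR, and 0.38 after the correction). Of the 14 receptors and ligands none was called. They ranged from *Cntn1*, a neuronal adhesion molecule that binds Ptprz1 and tenascin-R (-0.23, adjusted p = 0.156, edgeR, and -0.042 after the correction), to *Otx2*, a homeoprotein taken up by net-bearing cells (0.77, adjusted p = 0.631, edgeR, and 0.82 after the correction). *Otx2* is also made by choroid plexus. The summed level of 6 choroid plexus markers ran from 102 to 2206 CPM in WT mice and from 106 to 2291 CPM in Ube3am-/p+ mice, and *Otx2*, with 1.73 to 7.27 and 1.71 to 8.68 CPM, was likewise highest in WT mouse 3 and in Ube3am-/p+ mice 1 and 2.

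**Figure D5:**
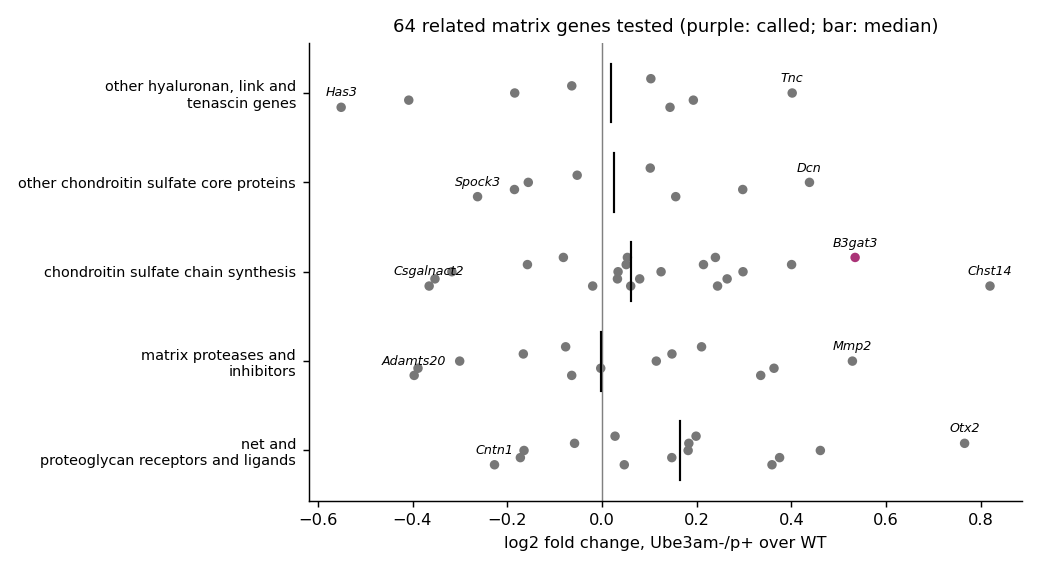
Log2 fold change of Ube3am-/p+ over WT mice (horizontal axis) for the 64 tested genes related to the net, in 5 lists by role; each point is 1 gene, the vertical bar is the median of the list and the names mark the lowest, the highest and the called gene. *B3gat3* (0.53) is the single called gene, and the points of each list lie on both sides of 0.

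Markers of the cells that make or carry nets were read in the same libraries. In bulk tissue fewer cells of a type and less RNA per cell cannot be told apart. The summed level of 8 interneuron markers, parvalbumin (*Pvalb*) included, was 973 to 980 CPM in WT mice and 905 to 932 CPM in Ube3am-/p+ mice, without overlap. None of the 8 was called, and 5 had positive estimates. *Gad1*, *Gad2* and *Kcnc2* were lower and *Lhx6* was higher without overlap, beside 14.2% and 10.8% of all genes. Their log2 fold changes of -0.21, -0.37, -0.30 and 0.19 were -0.15, -0.20, -0.18 and 0.03 after the correction. For *Lhx6* the nearest mice of the genotypes were almost equal, 13.300 CPM in WT mouse 3 and 13.302 CPM in Ube3am-/p+ mouse 1. Without *Gad1*, *Gad2* and *Kcnc2* the sum was 394 to 455 CPM in WT mice and 450.3 to 475 CPM in Ube3am-/p+ mice, with overlap. *Pvalb* itself had 18.9 to 23.7 CPM in WT mice and 21.7 to 26.5 CPM in Ube3am-/p+ mice. The 7 astrocyte markers summed to 5182 to 5597 CPM in WT mice and 4627 to 4855 CPM in Ube3am-/p+ mice, again without overlap and with none called. Most of that difference in CPM was in the glutamate transporter gene *Slc1a2* (log2 fold change -0.32, and -0.16 after the correction), the most abundant of the 7. *Slc1a2*, *Aqp4* and *Gja1* were lower without overlap, beside 14.2% of all genes. *Aqp4* (-0.28, and -0.05 after the correction), *Gja1* (-0.25 and -0.06) and *Slc1a3* (-0.13 and -0.02) had negative estimates too. Without *Slc1a2* the sums of the other 6 overlapped (2124 to 2158 and 2087 to 2160 CPM). *Gfap*, *Aldh1l1* and *Aldoc* had positive estimates (0.11, 0.03 and 0.21), which were -0.05, -0.09 and 0.14 after the correction. All marker sums, here and below, are of values not corrected for GC content. Both full sums were lower in the mice in which *Hapln1* and *Vcan* were lower, by a smaller proportion, and their part in the result was not tested. The sums without these genes were chosen after seeing the data.

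The 7 markers of oligodendrocyte precursors summed to 412 to 434 CPM in WT mice and 410 to 417 CPM in Ube3am-/p+ mice and overlapped. Of these 1 was called, beside 2.01% of all genes: *Pdgfra*, the growth factor receptor of these cells, which fell (log2 fold change -0.43, adjusted p = 0.0466, edgeR; -0.36 after the correction). Positive estimates were seen for 3 of the 7, *Sox10* (0.31, and 0.025 after the correction), *Olig2* (0.20 and -0.016) and *Olig1* (0.02 and -0.26). The genotypes did not overlap for *Sox10*. The 8 markers of mature oligodendrocytes summed to 8541 to 8656 CPM in WT mice and 7127 to 8137 CPM in Ube3am-/p+ mice, without overlap and with none called, while *Hapln2* had overlapping values. Of 5 markers of CA2, 1 was called, *Pcp4*, a calmodulin regulator, which rose (0.57, adjusted p = 0.0362, edgeR, and 0.49 after the correction). The estimates of *Amigo2* (-0.14, and -0.10 after the correction) and *Cacng5* (-0.04 and -0.10) were negative. Summed levels were also lower without overlap for 6 microglial markers (255 to 266 and 242 to 244 CPM) and 6 of endothelium and pericytes (314 to 336 and 265 to 302 CPM), and overlapped for CA2, other excitatory neurons, meninges and choroid plexus. No marker in these lists was at 0 in any library.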

How the data were processed

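RNA was extracted from the hippocampus of 3 WT and 3 Ube3am-/p+ mice and sequenced, with 1 library per mouse. The authors deposited raw counts per gene symbol, whole numbers without normalization or pooling. The submitters' processing notes name STAR 2.7.4a, HTSeq and the build mm10, while the annotation and the strand setting are not given in the sources used here. Reads on no gene (54.1% to 55.0% of all listed), ambiguous reads and reads with several alignments were left out, so paralogous stretches are undercounted.

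CPM are counts scaled to 1e+06 per library over genes. Differences were tested in R 4.3.3 with edgeR 4.0.16 (filterByExpr, TMM scaling, robust quasi-likelihood F test, two-sided, with a single factor for genotype), with p adjusted by Benjamini-Hochberg over all 14445 genes tested. This test was chosen here for counts; the study's general statement on statistics does not mention the sequencing counts. For the correction, the deviations of log2 CPM were regressed per library on GC content and log2 length of the longest GENCODE M21 transcript (natural splines, 5 degrees of freedom each), for the 14201 tested genes with a transcript (98.3%). On simulated data with 200 genes changed 2-fold, the main fit recovered 91.8% with 5 false calls among 14457 genes. The simulated counts had the same dispersion for every gene and no relation to GC content. They therefore do not give the number of false calls in these libraries. Alternatives were DESeq2 1.42.0, other scalings and filters, the replicate number as a block, the correction, and leaving out each mouse; the comparison of the mice numbered 1 was chosen after seeing the data. Promoter sequences are from RefSeq (GRCm38.p6), which held 8 of the 10 genes.

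The 10 genes and the gene lists were chosen with earlier results of these data known. Named were the 10 genes, *Ube3a*, of the related genes those called and the largest rise and fall in each list, and the 3 profiles nearest to *Hapln1*; *Edil3*, *Xrcc4*, *Hapln3* and the single cell type markers were added after their values were seen. The mice are separate animals. The depth of 7293272 to 11314409 counts per library limits the precision for *Acan* and *Has2*, and for *Acan* the spread among 3 mice per genotype does so too.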

Additional observations from a re-analysis of the deposited data

How the results depend on the processing

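With 3 mice per genotype the number of calls moved widely with the setting. Of all genes 290 were called, against 772 with DESeq2, 1176 with no filter, 92 once GC content and length were corrected for, 13 with that correction and the replicate block, 2832 at an unadjusted p with the same fold change, and 0 to 2582 with 1 mouse left out. With the replicate block 0 genes were called (2422 at an unadjusted p below 0.05, edgeR). Of the net genes 2 were called, against 1 with the correction, 0 with the block, 0 with both, and 0 to 3 with 1 mouse left out; other scalings, other filters and DESeq2 left 2. Of the related genes 1 was called, against 2 with DESeq2, 6 with no filter, 11 at an unadjusted p, 0 with the correction, 0 with the block, 0 with both and 0 to 10 with 1 mouse left out. Whether mice of the same number share anything besides the number is not given. The deviations of same-numbered mice from the genotype means correlated at -0.285, -0.177 and -0.311 across genes, and 0 of the 6 mice correlated best with its own number. These deviations also carry the relation to GC content, so they cannot decide the question. Between the counts of the mice numbered 1, chi-square per degree of freedom was 3.91, the lowest of all pairs of libraries. It was 16.5 for those numbered 2 and 22.2 for those numbered 3.

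The estimates of *Hapln1* (-0.83 to -0.47), *Vcan* (-0.71 to -0.41), *Ptprz1* (-0.41 to -0.13), *Hapln4* (-0.27 to -0.05) and *Tnr* (0.27 to 0.69) kept their sign in the 14 alternative fits. Other signs turned, and the cause was not tested. With the correction, alone or with the block, the log2 fold change was -0.029 and -0.017 for *Hapln2*, -0.071 and -0.054 for *Acan*, -0.20 and -0.20 for *Bcan*, -0.065 and -0.066 for *Ncan* and 0.057 and 0.058 for *Spock3*. *Acan* was -0.0078 with library size only. With 1 mouse left out, the range was -0.11 to 0.21 for *Acan*, -0.025 to 0.14 for *Bcan*, -0.058 to 0.084 for *Ncan* and -0.072 to 0.73 for *Dcn*. Per kilobase of all annotated exons in place of the longest transcript, *Vcan* (2.03) fell below *Tnr* (2.10) in WT mice, and *Ptprz1* moved from 35.8 to 20.3. Counts were few for *Acan*, with 53 to 86 per library, and for *Has2*, with 1 to 7. The interval of *Acan* also holds the spread between mice.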
